A study of Mus musculus with 13 samples.

Results

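Gas5, Snhg1, Snhg3, Snhg5, Snhg6, Snhg8 and Snhg12 are 7 non-coding genes that carry small nucleolar RNAs (snoRNAs) in their introns. They were taken by symbol from the 24062 rows of the deposited expression table, and all 7 had a row with reads in every library. The cells were mouse bone marrow cells negative for lineage markers and Sca-1 and positive for c-kit (LK cells), a fraction rich in myeloid, erythroid and megakaryocyte progenitors. They came from Boy/J recipients that had been lethally irradiated (a dose of 7.0 Gy and, 3 h later, 4.75 Gy) and given donor marrow. The donor marrow was TIFAB+/+;miR146a+/+ (WT, 3 libraries), TIFAB-/-;miR146a+/+ (TIFAB_KO, 3 libraries), TIFAB+/+;miR146a-/- (miR-146a_KO, 3 libraries) or TIFAB-/-;miR146a-/- (dKO, 4 libraries). Animals were 2 to 5 months old. All 4 groups shared the irradiation and the transplantation. The losses were carried by all donor marrow cells and not by LK cells alone, and surviving recipient cells were not measured here. The labels state 3 mice per group without saying that each library is a separate mouse, so p-values measure the spread between libraries, which may be technical.

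The introns of such host genes release snoRNAs when the transcript is spliced, and these guide chemical modification of ribosomal RNA, box C/D snoRNAs directing 2′-O-methylation and box H/ACA snoRNAs pseudouridylation. The spliced exons encode no long protein. Several such hosts begin, like ribosomal protein mRNAs, with a terminal oligopyrimidine (TOP) tract, a C at the first base followed by a run of C and T, which ties translation to growth signals through mTOR. Gas5 is the best known of them: its RNA is removed by nonsense-mediated decay during translation, accumulates when growth stops, and can bind the glucocorticoid receptor.

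The start sites are printed because the TOP tract is the feature that links these genes to the ribosomal protein genes. Each line runs from 15 bases before the annotated start to 20 bases from the start on, on the transcribed strand, from RefSeq promoters of GRCm38.p6. Capitals mark a C followed by at least 4 pyrimidines whose first base lies within 5 bases of the start. The table matched 6 of the 7 genes, and Gas5 had more than 1 start in it. Snhg6 is named only.
Gas5, downstream start, chr1:161035151-161035185, plus strand: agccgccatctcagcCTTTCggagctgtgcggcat
Gas5, upstream start, chr1:161034586-161034620, plus strand: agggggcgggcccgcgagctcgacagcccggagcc
Snhg1, chr19:8723472-8723506, plus strand: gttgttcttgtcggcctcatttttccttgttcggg
Snhg3, chr4:132353667-132353701, minus strand: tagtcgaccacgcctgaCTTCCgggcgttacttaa
Snhg5, chr9:88522878-88522912, minus strand: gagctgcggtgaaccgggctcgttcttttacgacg
Snhg8, chr3:123508317-123508351, minus strand: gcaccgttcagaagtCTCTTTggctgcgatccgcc
Snhg12, chr4:132308663-132308697, plus strand: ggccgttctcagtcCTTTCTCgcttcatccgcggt
Gas5 and Snhg8 had the tract exactly at an annotated start, Snhg12 began it 1 base earlier and Snhg3 at the third base. Snhg1, Snhg5 and the upstream Gas5 start had no such run beginning within 5 bases of the start. By gene, 4 of the 6 hosts with a start held the tract. The share was 21.2% of all 27025 genes in the promoter table, 33.3% of 12 other non-coding snoRNA hosts and 48.3% of 58 ribosomal protein genes. The hosts were picked with the TOP starts of several in view, so their share is only a description. A match describes letters at an annotated start and is not a measured start site.

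The 7 genes differ in how many snoRNAs they hold. GENCODE M21 on GRCm38, the mm10 build that the submitters' processing notes name, places 9 snoRNA loci in Gas5 (chr1:161034422-161038539, plus strand) and 8 in Snhg1 (chr19:8723475-8726443, plus strand). Snhg12 (chr4:132308623-132311024, plus strand) holds 4, of both classes. Snhg3 (chr4:132348014-132353686, minus strand) and Snhg5 (chr9:88521050-88522929, minus strand) hold 2 each. Snhg6 (chr1:9941959-9944118, minus strand) and Snhg8 (chr3:123507552-123508404, minus strand) hold 1 each. Of these 27 loci, 3 overlap an exon of the longest transcript without a retained intron, whereas 25 overlap an exon of some annotated transcript. Retained-intron transcripts make up 20 of 25 in Gas5 and 14 of 18 in Snhg1, so reads from unspliced host RNA can enter the same gene row as those from exons. Whether counting used the strand is not stated in the labels or the file. Gas5 overlaps the oppositely transcribed Zbtb37 by 428 bases, Snhg6 overlaps Mcmdc2 by 127 bases, and Snhg3 overlaps Rcc1 on the same strand by 5592 bases. Reads of these genes may therefore be shared between rows.

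**Figure D1:**
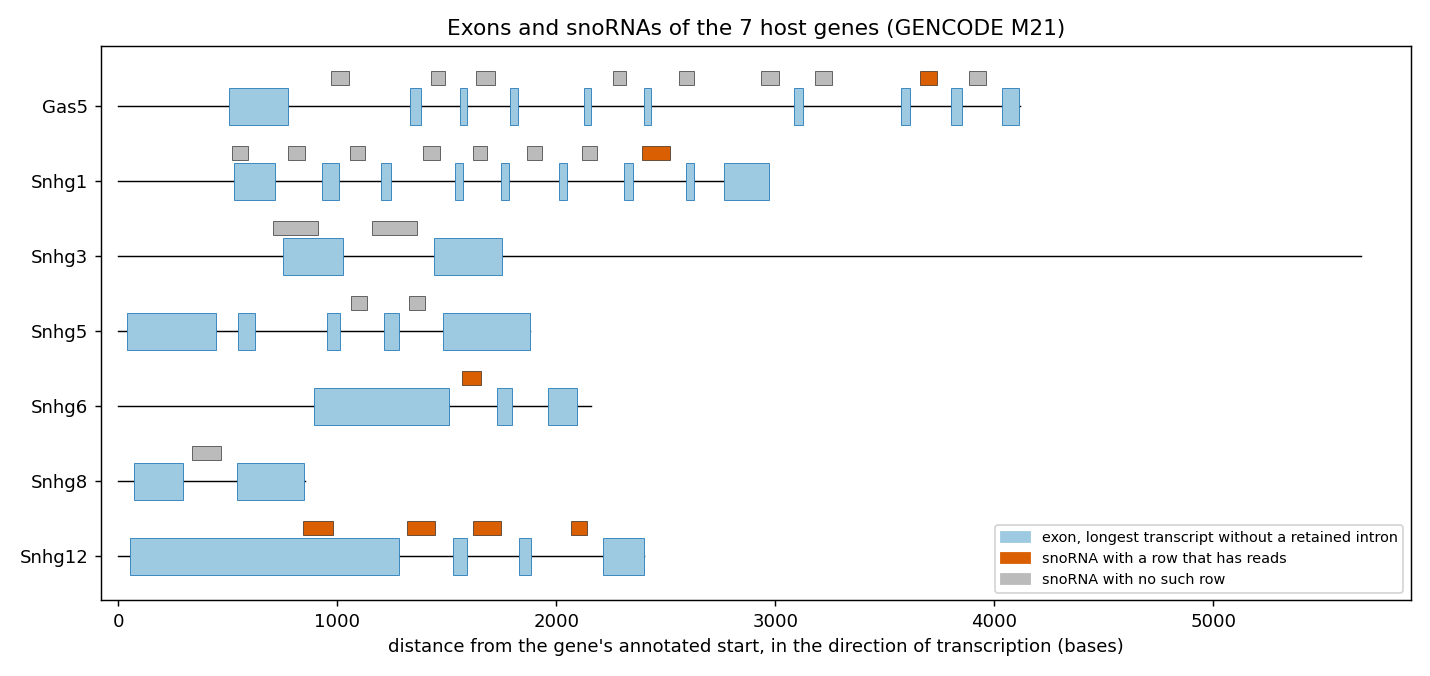
Exons of the longest transcript without a retained intron (blue boxes) and annotated snoRNAs (small boxes) along each of the 7 host genes; the black line is the whole annotated gene and the horizontal axis is the distance in bases from its annotated start. The 9 snoRNAs of Gas5 and the 8 of Snhg1 lie mostly between exons, and the orange boxes mark those with reads in a row of their own.

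Recovered library totals were 7.83 to 12.8 M reads. Progenitor identity was checked first: all 12 LK markers averaged at least 0 log2 CPM (counts per M reads), with 398 CPM for Kit and 10382 CPM for Mpo, while Ly6a, which encodes Sca-1, averaged 2.20 CPM and Hbb-bs had 0 reads. Mature neutrophil markers summed to 15.5 to 53.7 CPM in WT, 21.01 to 175 in TIFAB_KO, 32.8 to 66.3 in miR-146a_KO and 15.8 to 473 in dKO. Macrophage markers summed to 35.1 to 64.5 CPM in WT, and to 65.5 to 118 with Tifab lost, 59.3 to 65.9 with miR-146a lost and 64.8 to 123 with both lost. Their part in the values below was not tested. The share of 45S pre-rRNA (Rn45s) was 3.85 to 10.7% of reads. In TIFAB_KO, Tifab fell by 1.95 ± 0.31 (SE) on the log2 scale (limma adjusted p 0.038). In dKO it fell by 2.94 ± 0.29 (limma adjusted p 2.72e-05), and reads of it remained in both groups. The row named Mir146, for the miR-146a gene, had 0 reads in all 13 libraries, WT included, and checks no label. TIFAB_KO replicate 3 and dKO replicate 3 stood apart from the rest, with median correlations to the other libraries of 0.947 and 0.951.

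Gas5 was by far the most abundant host. In bulk RNA such as this, fewer cells of a type and less RNA per cell cannot be told apart. It contributed 74.3% of the summed CPM of the 7 genes, Snhg1 14.0% and Snhg5 7.54%, while Snhg12, Snhg8, Snhg3 and Snhg6 each contributed between 0.706% and 1.51%. Per kilobase of the longest spliced transcript, Gas5 averaged 1932 ± 379 CPM (SD, n = 13 libraries), Snhg1 341 ± 71.8 and Snhg5 130 ± 25.2. Below them came Snhg8 at 37.9 ± 7.88, Snhg3 at 23.6 ± 8.13, Snhg12 at 17.0 ± 4.02 and Snhg6 at 14.96 ± 2.36 CPM per kilobase. Gas5, Snhg1, Snhg5 and Snhg8 followed in this order in all 13 libraries. Snhg8 exceeded Snhg3 in 12 libraries, but Snhg3 exceeded Snhg12, and Snhg12 exceeded Snhg6, in only 10 of 13, so the last 3 did not separate beyond their spread. With all annotated exons as the length, Gas5 averaged 342 CPM per kilobase, and the ranks of Snhg1 and Snhg5 held in 12 of 13 libraries. A library held 9178 to 16511 reads of Gas5, but only 54 to 249 of Snhg3 and 95 to 191 of Snhg6.

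Among the box C/D hosts, Gas5 varied within groups as much as between them. WT replicates 1 to 3 had levels of 9.90, 10.35 and 10.73 log2 CPM, and TIFAB_KO replicates had 10.64, 9.86 and 10.24. The miR-146a_KO libraries gave 10.49, 10.52 and 10.35, and dKO replicates 1 to 4 gave 10.29, 10.15, 10.55 and 9.86 log2 CPM. The 3 WT libraries alone spanned nearly the whole range of 0.87 log2 units seen over 13 libraries, and all 4 groups overlapped.

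Snhg1, which hosts Snord22 and a set of further box C/D snoRNAs, had WT levels of 8.19, 7.82 and 8.12 log2 CPM and TIFAB_KO levels of 8.14, 7.80 and 8.22. The miR-146a_KO levels were 8.09, 7.65 and 8.06, and the dKO levels 7.78, 7.26, 7.21 and 8.14. Of the 4 dKO libraries, 3 lay below every WT library and replicate 4 lay among the WT values, so the groups overlapped.

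Snhg5, host of the mouse U50 snoRNAs, stood at 7.37, 7.00 and 7.22 log2 CPM in the WT libraries, and at 7.04, 6.96 and 7.30 in those of TIFAB_KO. Loss of miR-146a alone gave 6.89, 6.72 and 7.00, and the dKO libraries gave 6.71, 6.47, 7.46 and 6.90. The miR-146a_KO libraries lay below the WT libraries without overlap, though the nearest values of both groups round to the same 7.00. In dKO, replicate 3 was the highest of all 13 libraries and the other 3 lay below WT.

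Snhg6, host of Snord87, ranged over only 0.81 log2 units, the narrowest of the 7. WT libraries gave 3.59, 3.40 and 3.37 log2 CPM and TIFAB_KO libraries 3.80, 3.21 and 3.90. For miR-146a_KO the values were 3.50, 3.74 and 3.61, and for dKO 3.48, 3.58, 4.02 and 3.60. Every group overlapped WT.

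Among the hosts of H/ACA snoRNAs, Snhg3, which carries the U17 snoRNAs, had the widest spread of the 7 genes, 1.61 log2 units. Its WT levels were 4.37, 3.53 and 3.95 log2 CPM and its TIFAB_KO levels 3.05, 3.83 and 4.29. The miR-146a_KO libraries had 3.62, 3.22 and 3.45, and the dKO libraries 3.51, 2.75, 4.18 and 4.36. Both its lowest value and a value level with the highest WT library were dKO libraries.

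Snhg8, host of Snora24, reached 4.76, 4.25 and 4.23 log2 CPM in the WT libraries and 4.43, 4.56 and 4.76 in the TIFAB_KO libraries. It reached 4.33, 4.22 and 3.90 with miR-146a lost alone, and 4.15, 4.01, 4.47 and 3.80 with both lost. The 6 libraries with miR-146a lay between 4.23 and 4.76 and the 7 without it between 3.80 and 4.47, with 2 of the 7 inside the range of the 6.

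Snhg12, host of Snora16a, Snora44, Snora61 and the box C/D Snord99, had WT levels of 4.53, 4.53 and 4.75 log2 CPM and TIFAB_KO levels of 4.64, 4.82 and 5.27. Its miR-146a_KO levels were 4.91, 5.05 and 4.84, and its dKO levels 4.51, 4.70, 3.67 and 4.46. The miR-146a_KO libraries were all above WT and above all dKO libraries, and dKO replicate 3, one of the libraries that stood apart, was the lowest by a wide margin.

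**Figure D2:**
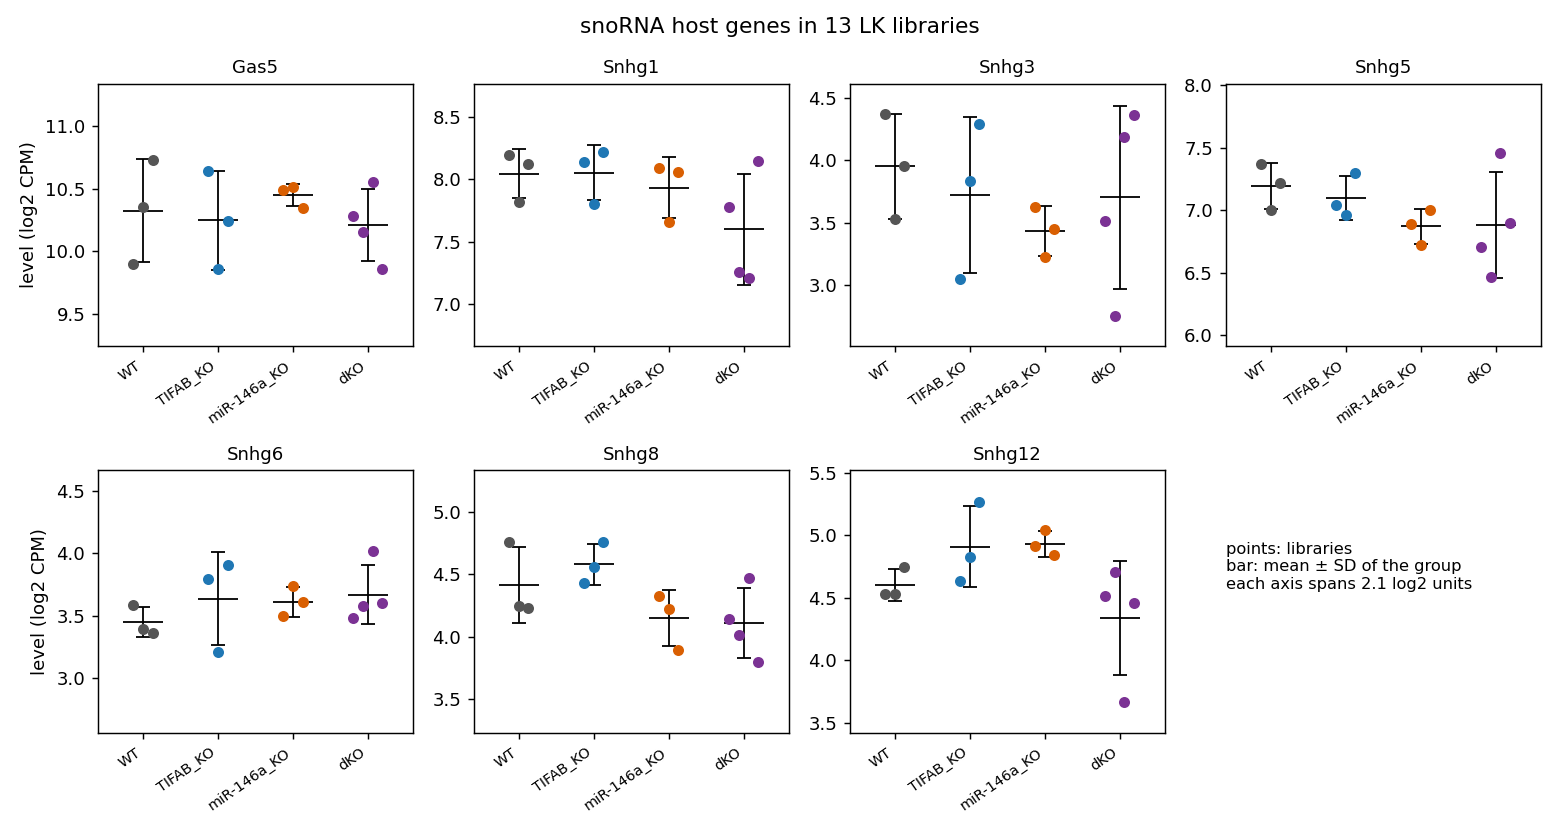
Level of each host gene in log2 CPM (vertical axis) in the 4 groups (horizontal axis); points are libraries and bars are the group mean ± SD, and each vertical axis spans the same number of log2 units. Gas5 and Snhg6 overlap in all groups, the miR-146a_KO libraries lie below WT for Snhg5 and above WT for Snhg12, and Snhg12 is lowest in dKO replicate 3 at 3.67.

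None of the host genes passed the test after loss of Tifab alone. In TIFAB_KO against WT, 0 of the 7 were called by limma at an adjusted p under 0.05, where 0.0169% of the 11867 genes tested did, and 0 of 7 had an unadjusted p under 0.05. None of the 7 had TIFAB_KO libraries wholly outside the WT range, against 8.52% of all genes. Values ran from -0.23 ± 0.37 (SE) for Snhg3 to 0.31 ± 0.24 for Snhg12, and the Gas5 difference was -0.08 with a 95% interval from -0.55 to 0.39 on the log2 scale. The median of the 7 was 0.01, beside -0.01 for all genes tested.

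Loss of miR-146a alone was followed by values in both directions. Again 0 of 7 passed limma (0.0843% of all genes did) and 0 had an unadjusted p under 0.05. Snhg5 at -0.33 ± 0.20 (limma adjusted p 0.606) and Snhg12 at 0.33 ± 0.24 (limma adjusted p 0.648) were the 2 genes whose libraries did not overlap with WT, and 21.9% of all genes tested did not overlap either. Snhg3 had the largest value, -0.52 ± 0.37, and Gas5 stood at 0.13 ± 0.22. The median of the 7 was -0.11 where that of all genes was 0.09.

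In dKO against WT, 6 of the 7 values were below 0, with Snhg6 at 0.22 ± 0.22 the exception. Snhg1 was at -0.45 ± 0.20, a 95% interval from -0.87 to -0.03, and had the one unadjusted p under 0.05 (0.0381, limma adjusted p 0.333), a level that 14.1% of all genes reached. No host passed the adjusted threshold, which 0.0674% of all genes passed, and none had dKO libraries wholly outside the WT range (12.5% of all genes). Snhg5 at -0.31 ± 0.19, Snhg8 at -0.31 ± 0.21, Snhg12 at -0.27 ± 0.22 and Snhg3 at -0.25 ± 0.35 had intervals that included 0. Gas5 was at -0.11 ± 0.21, and the median of the 7 was -0.27 beside 0.08 for all genes. The Snhg1 value depended on single libraries: it was -0.32 without dKO replicate 3 and -0.63 without dKO replicate 4. These 3 comparisons share the WT libraries, so a high or low WT value enters all of them.

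The question of how each loss changes the effect of the other was asked with the interaction, the dKO effect against WT less the effects of both single losses. Snhg12 had the largest value among the hosts, -0.90 ± 0.33 with a 95% interval from -1.59 to -0.22. Its mean level was 4.60 ± 0.13 log2 CPM in WT (SD, n = 3), and 4.91 ± 0.33 with Tifab lost and 4.93 ± 0.10 with miR-146a lost (n = 3 each). With both lost it was 4.34 ± 0.46 (n = 4). Thus each single loss gave a mean above WT and both together a mean below it. It had the single unadjusted p under 0.05 among the 7 (0.0122), but its limma adjusted p was 1.0, and 0 of 11867 genes (0%) passed by this test, with 502 (4.23%) at an unadjusted p under 0.05. Without dKO replicate 3 the Snhg12 value was -0.68, and -0.50 with TIFAB_KO replicate 3 also left out. The other 6 ran from -0.34 ± 0.29 for Snhg1 to 0.50 ± 0.51 for Snhg3.

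Pooling both Tifab states gave the most precise comparison for miR-146a loss, each background weighted equally. Snhg8 was at -0.37 ± 0.15 (unadjusted p 0.0242), a level that 23.2% of all genes reached, and did not pass limma's adjustment over all genes (adjusted p 0.156). Snhg1 at -0.28 ± 0.15 (limma adjusted p 0.252), Snhg5 at -0.27 ± 0.14 (limma adjusted p 0.237) and Snhg3 at -0.27 ± 0.25 lay near it. Snhg12 was at -0.12 ± 0.16, Gas5 at 0.04 ± 0.15 and Snhg6 at 0.10 ± 0.16. For Gas5 the 95% interval ran from -0.27 to 0.36, and its value turned below 0 under median centring (-0.02) and median-ratio size factors (-0.04). None of the 7 passed, where 0.733% of all genes did, and the median of the 7 was -0.27 beside 0.09 for all genes.

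Over both miR-146a states, Tifab loss gave values between -0.16 ± 0.15 for Snhg1 and 0.12 ± 0.16 for Snhg6, with Gas5 at -0.16 ± 0.15. Here 0 of 7 hosts passed limma, as did 0.0169% of all genes, and 0 of 7 had an unadjusted p under 0.05. The intervals of Snhg5 (-0.33 to 0.24) and Snhg8 (-0.25 to 0.38) lay within 1 log2 unit of 0.

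**Figure D3:**
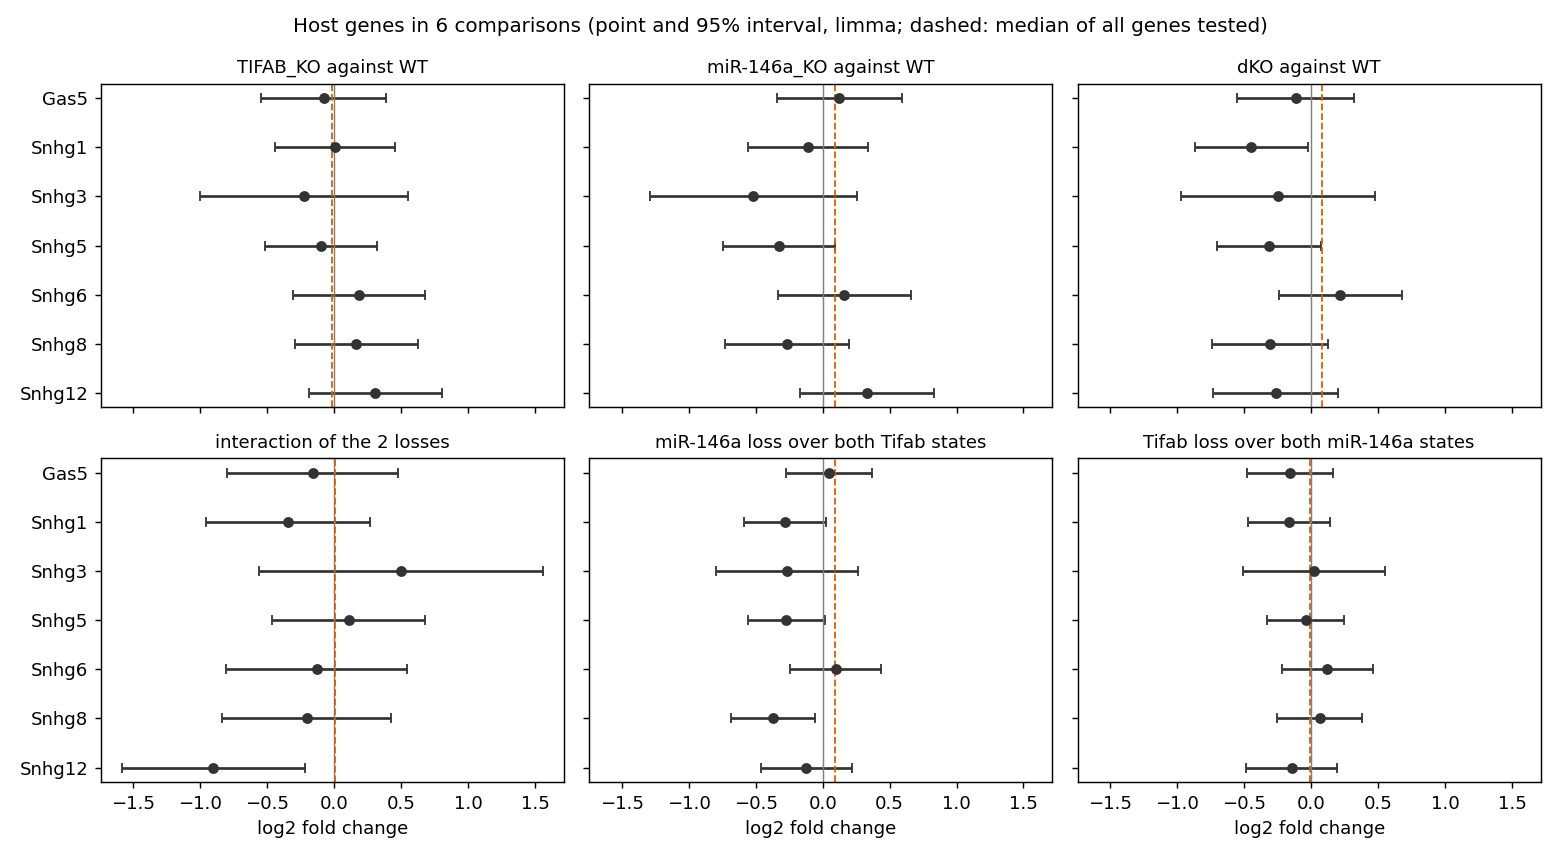
log2 fold change of each host gene (points) with its 95% interval from limma (bars) in 6 comparisons; the dashed line is the median of all genes tested. Intervals exclude 0 only for Snhg1 in dKO against WT, Snhg12 in the interaction and Snhg8 in miR-146a loss over both Tifab states, and none of these passed after adjustment.

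Of the 27 snoRNA loci, 8 had a row in the table, and 2 of these with enough reads to follow belong to the most abundant hosts. Their sequences are shown because their values in miR-146a loss lay above those of their hosts (GENCODE M21, GRCm38), with the C box TGATGA and the D box CTGA in capitals where those letters were found.
Snord47 in Gas5, chr1:161038082-161038158, plus strand: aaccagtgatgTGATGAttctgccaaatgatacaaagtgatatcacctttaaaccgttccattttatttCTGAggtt
Snord22 in Snhg1, chr19:8725866-8725991, plus strand: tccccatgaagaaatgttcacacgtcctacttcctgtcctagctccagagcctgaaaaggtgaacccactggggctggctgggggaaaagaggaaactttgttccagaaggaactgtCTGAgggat
The Snord47 row had 541 reads in all, with WT levels of 0.97, 1.26 and 2.34 log2 CPM and TIFAB_KO levels of 1.29, 2.50 and 0.82. The miR-146a_KO libraries had 2.04, 2.72 and 2.51, and the dKO libraries 2.26, 2.36, 2.11 and 2.59. The 7 libraries without miR-146a all lay above 2.0 log2 CPM, and 1 WT and 1 TIFAB_KO library reached the same levels. In miR-146a loss over both Tifab states Snord47 was at 0.85 ± 0.30 (unadjusted p 0.0109, limma adjusted p 0.114), beside 0.04 ± 0.15 for Gas5.

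Snord22, with 368 reads in all, had WT levels of 0.97, -0.21 and 1.44 log2 CPM and TIFAB_KO levels of 0.98, 1.72 and 0.94. With miR-146a lost alone they were 1.40, 1.87 and 2.60, and with both lost 1.73, 1.87, 0.84 and 2.16. The groups overlapped, and the same comparison gave 0.83 ± 0.34 (limma adjusted p 0.157) beside -0.28 ± 0.15 for its host Snhg1. Neither row passed the adjusted threshold, and the difference between a snoRNA row and its host was not tested. Reads in such a row may come from unspliced host RNA, since both loci lie within exons of other annotated host transcripts, and this was not tested. Zbtb37, which overlaps the first bases of the Gas5 gene, was at 0.73 ± 0.30 (limma adjusted p 0.164).

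**Figure D4:**
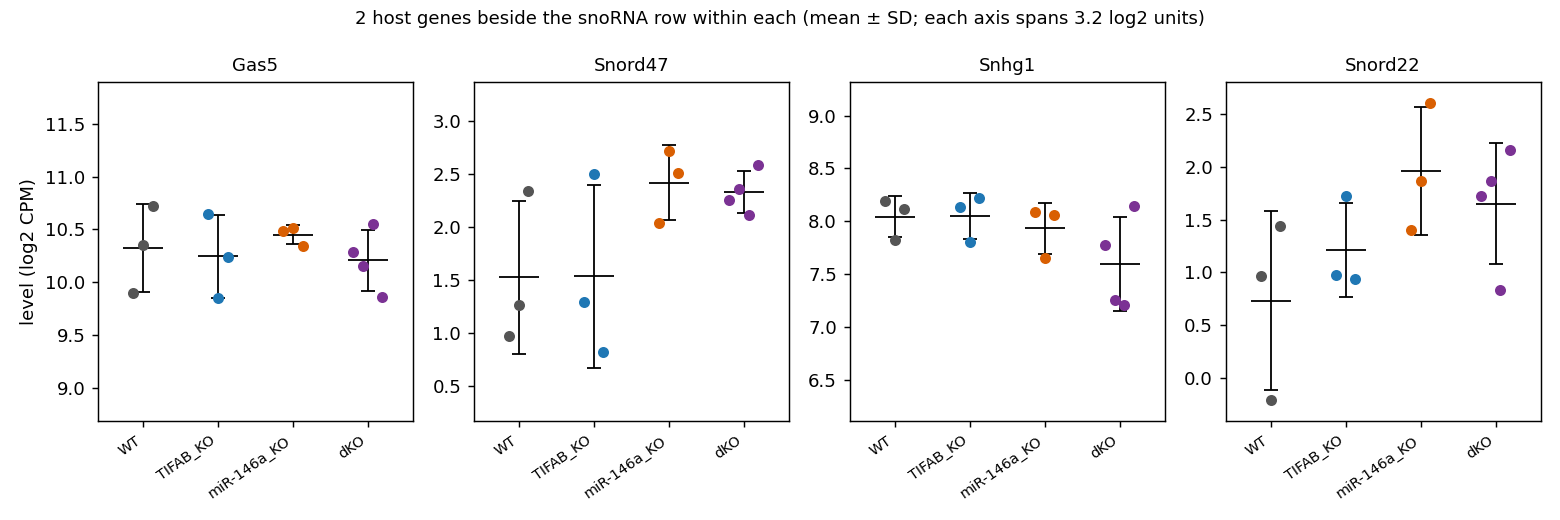
Levels in log2 CPM (vertical axis) of Gas5 and Snhg1 and of the snoRNA row within each, by group (horizontal axis); points are libraries, bars are mean ± SD, and every axis spans the same number of log2 units. Snord47 lies above 2.0 log2 CPM in all 7 libraries without miR-146a, and also in WT replicate 3 (2.34) and TIFAB_KO replicate 2 (2.50). Groups overlap for both Snord47 and Gas5.

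Genes that share a feature with the hosts were set beside them in miR-146a loss over both Tifab states. Ribosomal proteins, whose mRNAs are the classic TOP transcripts, fell in 18 of 78 tested (limma, where 0.733% of all genes were called) and rose in 0, with 77 below 0 and a median of -0.49. The mean log2 level of the list in a library, relative to its average over all 13, was 0.12 to 0.46 log2 units in WT and 0.08 to 0.68 in TIFAB_KO, but -0.27 to -0.10 in miR-146a_KO and -0.37 to -0.04 in dKO. The count of 18 moved with the libraries and settings, while 74 to 78 of 78 stayed below 0 under each library left out. By limma, 1 fell without WT replicate 1 or 2, dKO replicate 1 or 2 or any miR-146a_KO library, and 2 fell without TIFAB_KO replicate 3 or dKO replicate 3. Conversely 34, 49 and 47 fell without TIFAB_KO replicate 1, TIFAB_KO replicate 2 and dKO replicate 4. With all libraries kept, 1 fell with no filter or no variance trend, 9 with quantile normalization and 41 with library quality weights. 

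TOP mRNAs outside the ribosome, many of which encode translation factors, had 16 of 16 tested below 0 and a median of -0.26. The hosts had a median of -0.27, with 5 of 7 below 0. Hosts with the tract at an annotated start were Snhg8 (-0.37), Snhg3 (-0.27), Snhg12 (-0.12) and Gas5 (0.04). Snhg1 (-0.28) and Snhg5 (-0.27) had no tract there. Whether the tract had a part in these values was not tested. Of all genes tested, 62.6% were above 0. None of the 16 passed limma at the adjusted threshold, and 8 had an unadjusted p under 0.05, as did 23.2% of all genes in this comparison. Eef1g, a subunit of the elongation factor complex, was at -0.69 ± 0.20 (limma adjusted p 0.0783), Eif3h, an initiation factor subunit, at -0.61 ± 0.18 and Eef1b2 at -0.52 ± 0.13. Protein-coding snoRNA hosts outside the ribosome had a median of 0.07 over 30 genes, close to all genes, with 0 called by limma and 10 at an unadjusted p under 0.05. Among the other non-coding hosts, 4 of 14 listed were tested and 0 passed limma, with 1 at an unadjusted p under 0.05. That gene, Snhg4, had 5.84, 5.48 and 5.95 log2 CPM in WT, 5.36 to 5.45 in TIFAB_KO and 5.00 to 5.54 in the 7 libraries without miR-146a. Pooled miR-146a loss gave -0.35 ± 0.12 for it (limma adjusted p 0.11), and TIFAB_KO against WT gave -0.35 ± 0.18. Its WT libraries stood above all TIFAB_KO libraries, in a comparison where 8.52% of all genes did not overlap in either direction. Among the libraries without miR-146a, dKO replicate 4 at 5.54 lay above WT replicate 2 at 5.48. The difference between the hosts and any of these lists was not tested.

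Proteins that act on snoRNAs or on host transcripts had medians nearer to 0, and their shares at an unadjusted p under 0.05 lay near the 23.2% of all genes. In the list of 18 snoRNP proteins and assembly factors 0 passed limma and 5 had an unadjusted p under 0.05, with -0.13 as the median. Nhp2 and Nop10, core proteins of the H/ACA particle, were at -0.55 ± 0.14 and -0.46 ± 0.13, and Naf1, which assembles that particle, at 0.68 ± 0.18. For nonsense-mediated decay, which clears Gas5 RNA, 0 of 14 factors passed limma and 3 had an unadjusted p under 0.05, led by the kinase Smg1 at 0.50 ± 0.13, with a median of 0.08. Of 8 glucocorticoid receptor genes and targets, Zbtb16 rose by 0.94 ± 0.16 (limma adjusted p 0.0151) and Tsc22d3 fell by 1.10 ± 0.21 (limma adjusted p 0.0264). Limma called 0.733% of all genes here. The list had a median of 0.10, beside 0.09 for all genes. Before adjustment, limma put 4 of the 8 below 0.05, against 23.2% of all genes. Calls ranged from 7 to 1040 genes with single libraries left out. Whether Zbtb16 and Tsc22d3 stayed among them was not tested. Gas5, whose RNA can bind the glucocorticoid receptor, was at 0.04 in the same comparison.

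**Figure D5:**
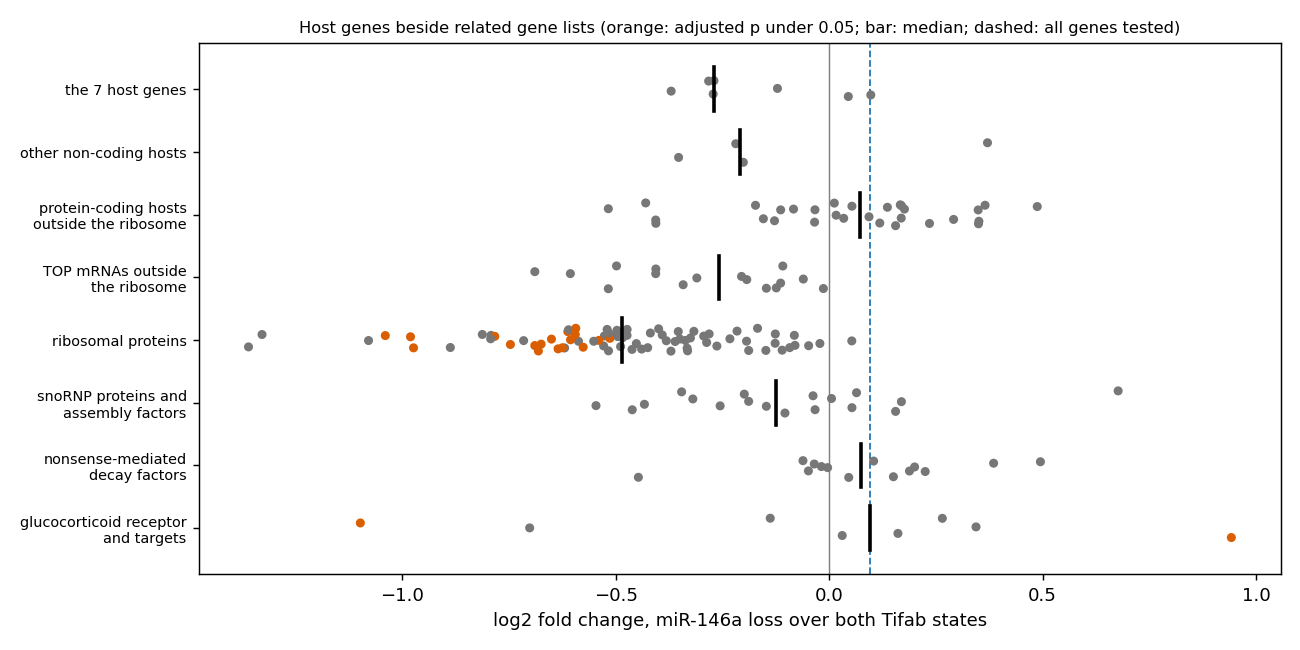
log2 fold change in miR-146a loss over both Tifab states (horizontal axis) of the 7 hosts and of related gene lists (vertical axis); points are genes, orange where the limma adjusted p is under 0.05, black bars are list medians and the dashed line is the median of all genes tested. The median of the hosts is -0.27, with 5 of 7 below 0. That of TOP mRNAs outside the ribosome is -0.26, with 16 of 16 below 0. The ribosomal proteins reach further left with a median of -0.49.

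Across the 13 libraries the hosts did not move as a block. Of 21 pairs, 13 had a Pearson r above 0, and the median was 0.13 (0.11 after removing group means). The closest pair was Snhg3 and Snhg5 at r = 0.74, with the same 0.74 within groups, followed by Snhg5 and Snhg8 at 0.63. Gas5 ranged from -0.35 with Snhg3 to 0.30 with Snhg6, and Snhg6 from -0.24 with Snhg12 to 0.36 with Snhg5.

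Set against the mean of the ribosomal proteins, Snhg8 (r = 0.67), Snhg1 (0.66), Snhg5 (0.53), Snhg3 (0.49) and Snhg12 (0.45) had coefficients of at least 0.45 over the 13 libraries, while Snhg6 stood at 0.04 and Gas5 at -0.20. Snhg3 followed the total reads of the library (r = 0.70) and Gas5 ran against them (-0.54). With log2 Rn45s, Snhg5 had r = 0.56, Snhg3 0.48, Snhg8 0.47, Snhg1 0.39 and Gas5 -0.34. These coefficients are descriptions over libraries that share groups, depth and RNA quality, and the part of depth and of Rn45s in them was not tested. Among 8507 genes averaging at least 3 log2 CPM, those most like Gas5 were Dlst, a subunit of the oxoglutarate dehydrogenase complex (r = 0.88), Prkab1 (0.88), Actn4 (0.87), Ppp2ca (0.87) and Skiv2l (0.87). Those most like the mean of the 7 were Ap2s1 (0.91), Psmc3 (0.89), Rps27l (0.89), Timm8b (0.89) and Llph (0.88). No gene was in both sets.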

How the data were processed

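The submitters' processing notes name TopHat, featureCounts, limma and the mm10 build, with no versions or annotation. The deposited values are log2 CPM in the form that voom gives, from 24062 gene rows in 13 libraries (4055 rows had 0 reads throughout). Whole reads came out of 100% of 312806 values within 0.01 read. Totals of 7.83 to 12.8 M reads put the floor of 3 reads at 0.235 to 0.383 CPM.

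Group means were compared with limma 3.58.1 (R 4.3.3) on the deposited values, all 13 libraries in 1 fit, variances moderated with a trend. The 11867 genes averaging at least 0 log2 CPM were tested, and Benjamini-Hochberg adjusted p under 0.05 was called. Errors of fold changes are SE, and those of levels SD. The fit was tested on simulated counts for miR-146a_KO against WT over 12056 genes. It recovered 87% of genes changed by 1 log2 unit and 100% at 2, with 11 of 198 calls on unchanged genes. The simulation gave every gene the same dispersion, set by hand, and drew the changed genes from those averaging at least 3 log2 CPM. The recovered shares are therefore not the power for the hosts in these libraries.

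Named genes were the hosts, their snoRNA rows and neighbours, up to 3 members of each related list by size of change, and the 5 genes most correlated with Gas5 or the mean of the 7. Hosts, lists and tests were chosen with earlier results of these data known. Some genes sit in more than 1 list. Alternatives were other filters, scalings, variance models, a replicate block and single libraries left out. Same-numbered libraries of different groups did not pair: 2 of 18 pairs had a correlation above 0.1.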

Additional observations from a re-analysis of the deposited data

How the results depend on the processing

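The number of hosts that passed limma stayed at 0 of 7 in all 6 comparisons under each single library left out (range 0 to 0) and under every other setting run except the replicate block, out of 27 settings per comparison (26 for the interaction and both pooled comparisons, where a fit of only the groups compared does not apply). With the replicate block, 1 host passed in dKO against WT and 1 in miR-146a loss over both Tifab states. Both were Snhg1, at -0.63 (limma adjusted p 0.0395) and -0.37 (limma adjusted p 0.044). By construction that block takes dKO replicate 4, the only library numbered 4, out of the contrast, and 4 of 13 libraries correlated best with their own number.

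The number of genes called was 87 in miR-146a loss over both Tifab states, with 7 to 1040 when a library was left out and 8 to 869 otherwise. Under the block 40 ribosomal proteins fell there instead of 18. In dKO against WT 8 genes became 4 to 336 and 4 to 792, in miR-146a_KO against WT 10 became 4 to 12 and 5 to 213, and in TIFAB_KO against WT 2 became 0 to 44 and 0 to 5. In the interaction 0 became at most 1, and in Tifab loss over both miR-146a states 2 became 2 to 5. The median of the hosts in miR-146a loss over both Tifab states stayed below 0, from -0.36 to -0.13. Gas5 kept its sign there in 20 of 26 settings (-0.06 to 0.15 without single libraries). Median centring and median-ratio size factors, the latter chosen after seeing the data, left 1 of 7 hosts above 0 instead of 2. The 2 planned count-model fits were not run, because the deposited values are log2. Snhg3 and Snhg6, with at most 249 reads in a library, are limited most by depth.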

Other observations

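Outside the hosts themselves, their neighbours gave values with no call in miR-146a loss over both Tifab states. Slc3a2, which lies 106 bases from Snhg1 on the opposite strand and encodes an amino acid transporter subunit, was at 0.08 ± 0.11, and Rcc1, which spans most of Snhg3 and encodes a nucleotide exchange factor for Ran, was at 0.02 ± 0.12. Mcmdc2 beside Snhg6 was at 0.34 ± 0.25 and Prss12 beside Snhg8 at 0.40 ± 0.31. Trnau1ap beside Snhg12 was at 0.04 ± 0.22.

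Beyond Snord47 and Snord22, the snoRNA rows were sparse: Snora44 of Snhg12 held 164 reads, Snord99 51, Snord87 44, Snora61 32 and Snora16a 22 over 13 libraries, and Snora24 held 0. Snora44 was at 0.34 ± 0.51 in the same comparison (limma adjusted p 0.719).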
